A study of Mus musculus with 6 samples.

Results

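The jejunal expression of Ifrd1, Ifrd2 and the genes of the Sin3-HDAC corepressor complex was compared between Ifrd1 Ifrd2 double knockout and wild type mice. Of 10 genes chosen by name (Ifrd1, Ifrd2, Sin3a, Sin3b, Hdac1, Hdac2, Hdac3, Ncor1, Sap30 and Sap18), 8 had at least 1 probe set that the platform annotation assigns to a single gene, out of 18193 such genes on the array. These 8 genes were read by 16 probe sets. Of the others, Ncor1 is not analysed here, and the 5 probe sets that name Sap18 also name a second gene and were left out.

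RNA came from the jejunum, the segment of small intestine where most fat is absorbed, in 6 male mice on a C57BL/6 background. The double knockout group (mice 1, 2 and 3) carried the combined knockout of TIS7 (Ifrd1) and SKMc15 (Ifrd2), and the wild type group (mice 1, 3 and 4) carried neither; n = 3 in each. Mice of both groups were 7 to 10 weeks old, lived singly and ate a high saturated fat diet with 42% of energy from milk fat and 0.2% from cholesterol. The tissue was frozen after 3 weeks of it, and a maximum of 8 weeks of diet is also on record for every mouse. An Affymetrix whole-genome expression array was run per mouse, and values are log2 expression levels made with GCRMA, so a difference of 1 is a doubling. Neither the deleted exons nor any littermate relation between the groups is given in the labels.

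Ifrd1 and Ifrd2 encode related proteins without a known DNA-binding domain. Ifrd1 has been described as a transcriptional co-regulator that binds the Sin3 corepressor complex, and Ifrd2 as a protein of translationally inactive ribosomes. In that complex Sin3a or Sin3b is the scaffold, Hdac1 and Hdac2 are the deacetylases that remove acetyl groups from histone tails, and Sap30 and Sap18 are associated subunits. Hdac3 is the deacetylase of the separate complex built on Ncor1. The arrays measured transcripts, not the amount or activity of these proteins.

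The promoters of the targeted genes are shown because theirs are the transcripts that the knockout was made to remove, and both were lower in every double knockout mouse. Both runs are the 250 bases before the annotated start, 5′ to 3′ on the gene's strand, from RefSeq (GRCm38.p6). Capitals mark matches on either strand to the GC box GGGCGG and the CCAAT box CCAAT.
Ifrd1, chr12:40223190-40223439, minus strand: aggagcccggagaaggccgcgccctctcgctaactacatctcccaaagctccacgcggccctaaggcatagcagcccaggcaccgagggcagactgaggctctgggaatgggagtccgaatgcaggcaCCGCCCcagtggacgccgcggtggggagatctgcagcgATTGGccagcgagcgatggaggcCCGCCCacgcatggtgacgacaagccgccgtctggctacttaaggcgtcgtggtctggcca
Ifrd2, chr9:107587468-107587717, plus strand: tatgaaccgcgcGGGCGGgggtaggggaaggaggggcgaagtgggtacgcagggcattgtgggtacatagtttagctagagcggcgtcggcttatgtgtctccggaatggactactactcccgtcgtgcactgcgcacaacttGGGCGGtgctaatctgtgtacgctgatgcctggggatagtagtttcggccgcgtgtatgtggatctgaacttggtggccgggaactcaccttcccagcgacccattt
Each window held 2 GC boxes, a motif found in 32.7% of 32851 promoter windows of the same length, and was rich in G and C (66.4% for Ifrd1 and 58.4% for Ifrd2). The Ifrd1 window also held 1 CCAAT box (33.8% of windows) and the Ifrd2 window none. Neither held the E-box CACGTG, the motif bound by the Mxd proteins that recruit Sin3 (6.02% of windows), or the cyclic AMP response element TGACGTCA (1.55%). The matches are descriptions of these letters, and the arrays say nothing about binding there.

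Testing was limited to 18013 of 45101 probe sets, those above a log2 level of 4 on at least 3 of the 6 arrays. Of these, 805 (4.47%) passed limma (adjusted p no higher than 0.05), 458 of them higher in double knockout jejunum (2.54%) and 347 lower (1.93%). A measure of RNA breakdown was on average higher in the double knockout group: the 3′ minus 5′ difference of the Actb and Gapdh control probe sets, on the log2 scale, was 0.60, 0.41 and 0.61 in double knockout mice 1, 2 and 3, against 0.35, 0.49 and 0.36 in wild type mice 1, 3 and 4. The groups overlapped, since double knockout mouse 2 lay below wild type mouse 3. As for tissue identity, all 10 enterocyte markers were bright enough to be tested, and the 3 ileum markers (Fabp6, Slc10a2 and Fgf15) lay under a log2 level of 4 on every array. Of 5 colon markers, Car1, Slc37a2 and Aqp8 lay under it too, while Car4 and Slc26a3 were bright on every array (10.94 to 11.34 and 11.43 to 11.72). Of 4 pancreatic acinar markers, Cela1 alone was tested (7.42 to 7.75 in double knockout and 6.87 to 7.18 in wild type jejunum). In bulk tissue, fewer cells of a type and less RNA per cell cannot be told apart.

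Ifrd2 transcript was under the minimum level of 4 in every double knockout mouse. Its probe set, 1451016_at, read 2.64, 2.74 and 2.59 in double knockout mice 1, 2 and 3, against 8.20, 8.32 and 8.61 in wild type mice 1, 3 and 4. Every double knockout mouse lay far below every wild type mouse. As no double knockout value reached the minimum of 4, the change is given as at least 20.8-fold lower, with values under 4 raised to 4 (limma adjusted p = 5.81e-05 on those values and 2.37e-05 on the values as deposited).

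Ifrd1 was also far lower in every double knockout mouse, but a signal above the minimum remained. Its probe set, 1416067_at, read 6.27, 4.80 and 4.85 in double knockout mice 1, 2 and 3, against 10.00, 9.84 and 9.91 in wild type mice 1, 3 and 4. The wild type mice lay close together (SD 0.08), whereas the double knockout mice spread widely (SD 0.83), with mouse 1 well above the other two. The log2 fold change was -4.61 ± 0.38 (SE; limma adjusted p = 0.00894), a 24.5-fold lower level with a 95% interval of -5.52 to -3.70 on the log2 scale. Without double knockout mouse 1 it was -5.09 ± 0.10 (limma adjusted p = 0.000146). The call was lost with the 3′ minus 5′ difference as a covariate (-4.93 ± 0.52, limma adjusted p = 0.0777). Under that setting 17 of all 18013 tested probe sets were called. Each of the targeted genes had 1 probe set, and where it lies relative to the deleted part is not given in the sources used here, so the remaining Ifrd1 signal cannot be assigned to an intact or a shortened transcript.

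**Figure D1:**
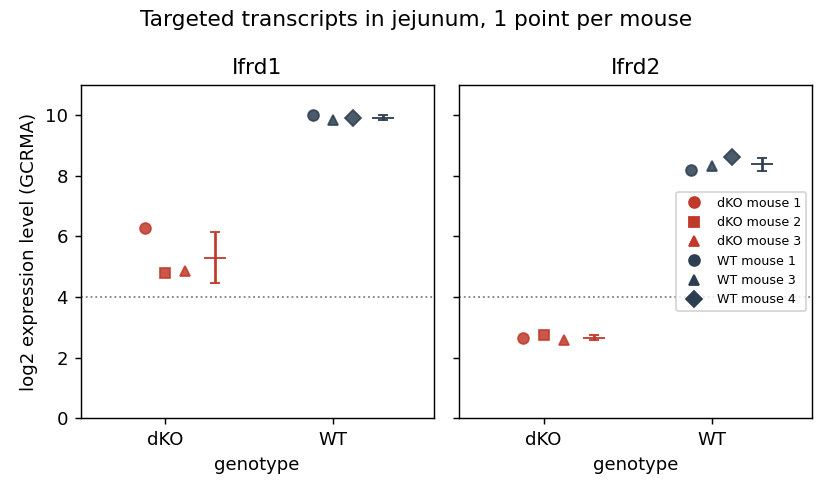
Log2 expression level (vertical axis) of Ifrd1 and Ifrd2 in double knockout (dKO) and wild type (WT) jejunum, 1 point per mouse, with the mean and SD of 3 mice beside the points and the minimum level of 4 as a dotted line. All dKO mice lay far below all WT mice for both genes, and dKO mouse 1 kept an Ifrd1 level of 6.27.

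None of the corepressor genes passed the test in this comparison. The 6 other genes had 14 probe sets, of which 12 were bright enough to be tested. With limma, 0 of the 12 rose and 0 fell at the adjusted threshold of 0.05, beside 4.47% of all tested probe sets, and 2 had an unadjusted p of at most 0.05, a share to be read beside 27.1% of all tested probe sets. The 12 log2 fold changes ran from -0.32 to 0.57 with a median of 0.01 (0.03 over all tested probe sets), 6 positive and 6 negative. The groups did not overlap on 5 of the 12 probe sets, beside 34.3% of all tested probe sets.

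**Figure D2:**
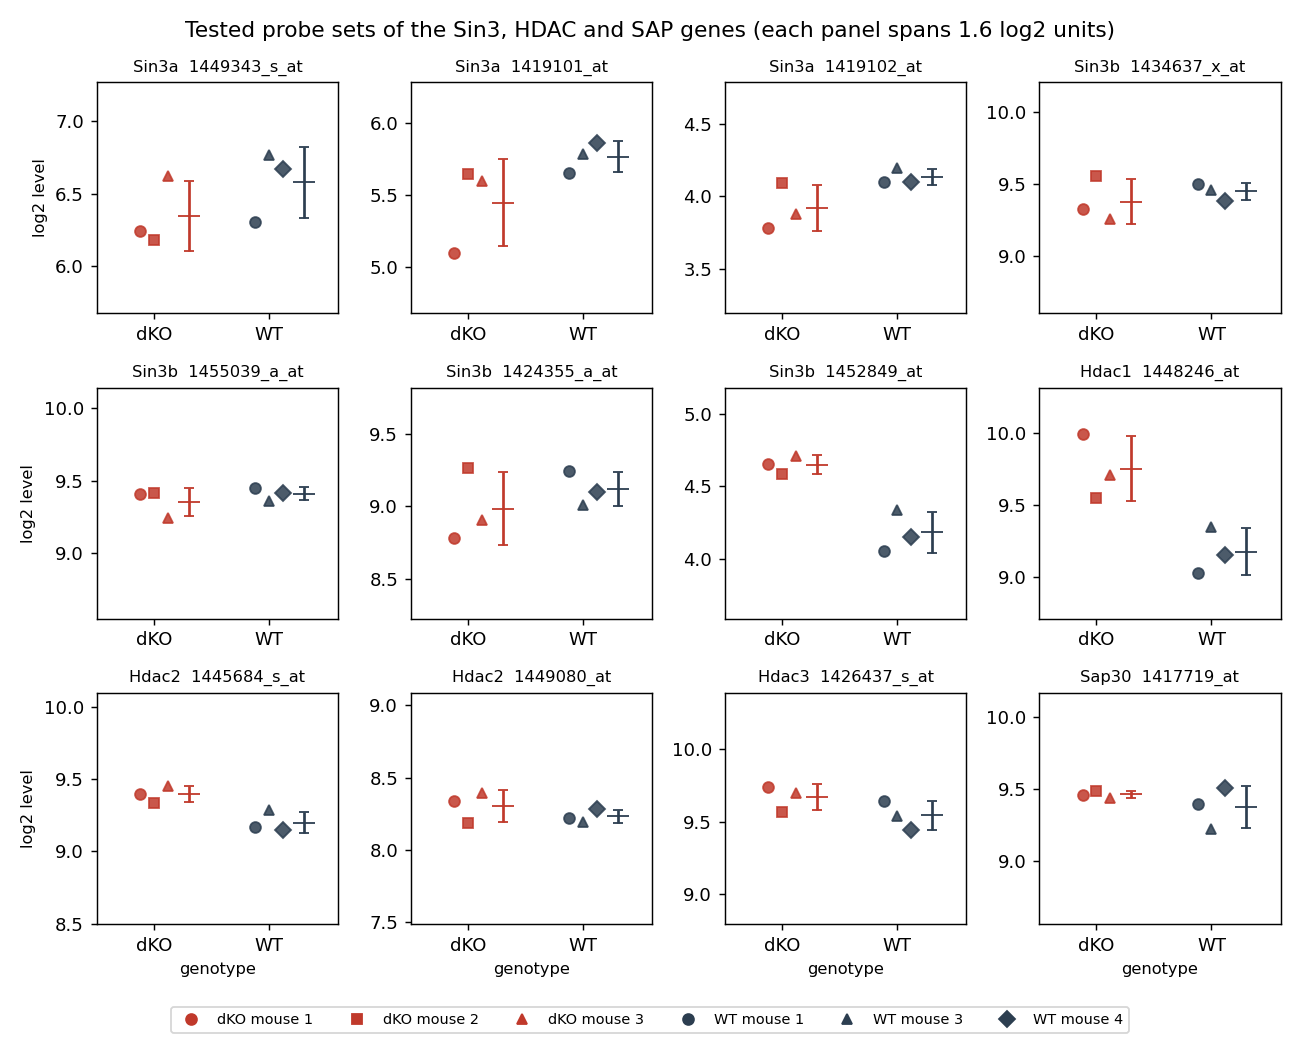
Log2 expression level of each tested probe set of Sin3a, Sin3b, Hdac1, Hdac2, Hdac3 and Sap30 in double knockout (dKO) and wild type (WT) jejunum, 1 point per mouse with the mean and SD of 3 mice; every panel spans the same range of log2 units. The dKO and WT mice separate most for Hdac1 and for Sin3b probe set 1452849_at, and dKO mouse 1 is lowest on Sin3a probe set 1419101_at.

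The scaffold Sin3a, which holds the deacetylases and the DNA-binding factors together, was measured by 3 probe sets, all with negative differences that did not pass. On 1419101_at the levels were 5.10, 5.64 and 5.60 in double knockout mice 1, 2 and 3, against 5.65, 5.79 and 5.86 in wild type mice 1, 3 and 4. The groups met to within 0.01, and double knockout mouse 1 stood apart below the rest. The log2 fold change was -0.32 ± 0.16 (limma adjusted p = 0.250), with a 95% interval of -0.70 to 0.06. Without double knockout mouse 1 the difference was -0.15 ± 0.10 (limma adjusted p = 0.419).

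On the Sin3a probe set 1419102_at, levels were near the minimum, at 3.78, 4.09 and 3.88 in double knockout mice 1, 2 and 3 and 4.10, 4.20 and 4.10 in wild type mice 1, 3 and 4 (log2 fold change -0.22 ± 0.10, limma adjusted p = 0.237). The groups did not overlap but were again less than 0.01 apart. With values under 4 raised to 4 the difference was -0.10 (limma adjusted p = 0.441). On the brightest, 1449343_s_at, they overlapped: levels were 6.24, 6.18 and 6.63 in double knockout mice 1, 2 and 3 and 6.30, 6.77 and 6.67 in wild type mice 1, 3 and 4. That difference was -0.23 ± 0.17, with a 95% interval of -0.64 to 0.18 (limma adjusted p = 0.419). Leaving out 1 mouse at a time gave values from -0.37 (double knockout mouse 3 left out) to -0.14 (wild type mouse 3 left out), and the 3′ minus 5′ covariate gave -0.46 (limma adjusted p = 0.338). On 1419101_at and 1419102_at that covariate gave smaller differences instead, of -0.20 and -0.12 (limma adjusted p = 0.692 and 0.694). Sin3a lies on the chromosome that carries Ifrd2, on which 7.92% of 871 tested probe sets were called, beside 4.38% of 14979 on the other chromosomes and 4.99% of 601 on that of Ifrd1.

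The probe sets of Sin3b, the alternative scaffold, did not move together. The 3 bright ones had small negative differences: -0.07 ± 0.10 on 1434637_x_at, -0.06 ± 0.09 on 1455039_a_at and -0.13 ± 0.14 on 1424355_a_at, with limma adjusted p-values of 0.687, 0.704 and 0.580. Their 95% intervals together reached from -0.48 to 0.21, and the groups overlapped on each. With the 3′ minus 5′ difference as a covariate all 3 had positive differences, of 0.05, 0.01 and 0.13.

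A dimmer Sin3b probe set, 1452849_at, read 4.65, 4.58 and 4.71 in double knockout mice 1, 2 and 3, against 4.05, 4.34 and 4.15 in wild type mice 1, 3 and 4. All double knockout mice lay above all wild type mice, by at least 0.25. The log2 fold change of 0.47 ± 0.10 had an unadjusted p of 0.00275 and a limma adjusted p of 0.0544, just above the threshold. With estimated array weights it was 0.48 and passed (limma adjusted p = 0.0486), with 5.66% of all tested probe sets called under that setting; it passed in none of the other settings in which it was tested. With the 3′ minus 5′ difference as a covariate it was 0.34 (limma adjusted p = 0.277), and with each mouse left out 0.41 to 0.55 (limma adjusted p 0.0677 to 0.164). Calls over all tested probe sets were 17 with that covariate and 32 to 435 with a mouse left out.

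Within each array, the dim Sin3b probe set minus the mean of the 3 bright ones was -4.52, -4.83 and -4.42 in double knockout mice 1, 2 and 3 and -5.35, -4.94 and -5.15 in wild type mice 1, 3 and 4. The mean difference was 0.56 in favour of double knockout, and the groups did not overlap (two-sided exact permutation p = 0.1, the smallest that 3 against 3 mice allow). The probe sets were compared in this way after their values were seen. The remaining Sin3b probe set, 1425630_at, was too dim to test, with levels from 1.98 to 2.32 in double knockout and 2.05 to 2.26 in wild type jejunum. By the array's naming, an ending in a marks probes shared by transcripts of the same gene, s probes that can match transcripts of several genes, and x probes that may cross-hybridise.

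Of the deacetylases, Hdac1 had the largest difference of all the corepressor genes, and it did not pass. Its probe set, 1448246_at, read 9.99, 9.55 and 9.71 in double knockout mice 1, 2 and 3, against 9.03, 9.35 and 9.15 in wild type mice 1, 3 and 4. Every double knockout mouse lay above every wild type mouse, mouse 1 highest and mouse 2 nearest to wild type. The log2 fold change was 0.57 ± 0.14, a level 1.49-fold that of wild type, with a 95% interval of 0.23 to 0.92. Its unadjusted p was 0.00576 and its limma adjusted p 0.0699.

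The Hdac1 result lay close enough to the threshold for settings to decide it. It passed with a stricter filter (limma adjusted p = 0.0492) and with a trended and robust variance prior (limma adjusted p = 0.0319), settings under which 9.56% and 9.6% of all tested probe sets were called. With the 3′ minus 5′ difference as a covariate the difference was 0.34 ± 0.14 (limma adjusted p = 0.331), and without double knockout mouse 1 it was 0.45 ± 0.13 (limma adjusted p = 0.120). Over all tested probe sets, those settings gave 17 and 204 calls. Most markers of proliferating crypt cells moved the same way: of 9 measured, Mcm5, Cdk1 and Top2a rose, beside 2.54% of all tested probe sets, and 0 fell. Pcna stood at -0.05 and the stem cell marker Lgr5 at 0.10, without a call. Their median difference was 0.45, beside 0.03 over all tested probe sets. Their summed linear signal was 9365 to 10473 in double knockout and 7662 to 9312 in wild type jejunum, and no marker was under the minimum on all arrays. The summed signal of the 10 enterocyte markers went the other way, at 107603 to 110610 in double knockout and 116746 to 119029 in wild type jejunum, with Treh the only one to pass (it fell, beside 1.93% of all tested probe sets). The median difference of the enterocyte markers was small, at -0.09. The 6 B and plasma cell markers summed to 22455 to 23576 in double knockout and 18339 to 21982 in wild type jejunum, with no call among the 5 tested. All 6 fibroblast markers had positive differences with a median of 0.49 and no call, and summed to 4694 to 6183 in double knockout and 2990 to 4888 in wild type jejunum. The 6 macrophage markers summed to 2901 to 4206 in double knockout and 2525 to 4039 in wild type jejunum, with a median difference of 0.31 and no call among the 5 tested. Goblet, Paneth, T cell, smooth muscle and enteroendocrine markers had no call, with median differences of -0.05, -0.07, 0.11, 0.04 and 0.16. Their summed signals overlapped between the groups. The part of RNA integrity and of cell composition in the Hdac1 difference was not tested beyond these values.

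**Figure D3:**
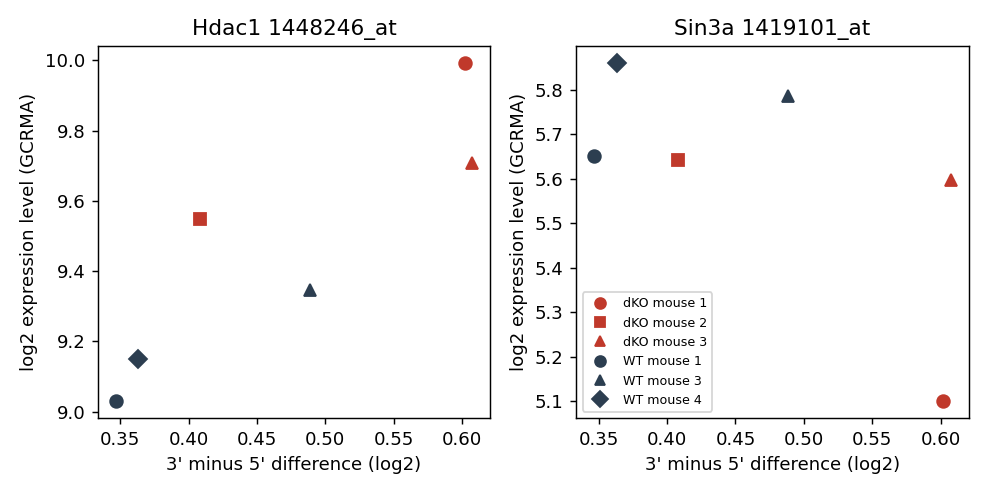
Log2 expression level of Hdac1 and of Sin3a probe set 1419101_at (vertical axes) against the 3′ minus 5′ difference of control transcripts (horizontal axes, log2), 1 point per mouse, double knockout (dKO) and wild type (WT). dKO mice 1 and 3 had the largest 3′ minus 5′ differences. dKO mouse 1 had the highest Hdac1 level and the lowest level on this Sin3a probe set, and dKO mouse 3 had neither.

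Hdac2, the close relative that shares the same complexes, was read by 3 probe sets. On 1445684_s_at the levels were 9.40, 9.34 and 9.45 in double knockout mice 1, 2 and 3, against 9.17, 9.28 and 9.14 in wild type mice 1, 3 and 4. The groups did not overlap but came within 0.05 of each other, and the log2 fold change of 0.20 ± 0.08 did not pass (limma adjusted p = 0.191). The other tested probe set, 1449080_at, overlapped between groups, at 8.34, 8.18 and 8.39 in double knockout and 8.22, 8.19 and 8.28 in wild type mice (0.07 ± 0.09, 95% interval -0.14 to 0.29, limma adjusted p = 0.629). The third, 1439704_at, was too dim to test, with levels from 2.27 to 2.51 in double knockout and 1.94 to 2.45 in wild type jejunum.

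Hdac1 was also set against Hdac2 within each array. Hdac1 minus the mean of the 2 tested Hdac2 probe sets was 1.12, 0.79 and 0.79 in double knockout mice 1, 2 and 3 and 0.34, 0.61 and 0.44 in wild type mice 1, 3 and 4. The groups did not overlap and their means differed by 0.44 (two-sided exact permutation p = 0.1, the smallest possible). The comparison was chosen after the values were seen, and the absolute size of such a difference has no meaning between probe sets.

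Hdac3, the deacetylase of the NCoR complex, and Sap30, which links Sin3 to its partners, had overlapping groups. Hdac3 (1426437_s_at) read 9.74, 9.57 and 9.70 in double knockout mice 1, 2 and 3 and 9.65, 9.54 and 9.44 in wild type mice 1, 3 and 4. Its log2 fold change was 0.12 ± 0.09, with a 95% interval of -0.10 to 0.35 (limma adjusted p = 0.431). Sap30 (1417719_at) read 9.46, 9.49 and 9.44 in double knockout mice, within 0.05 of each other, and 9.39, 9.22 and 9.51 in wild type mice. Its difference was 0.09 ± 0.10, with a 95% interval of -0.15 to 0.32 (limma adjusted p = 0.597). It was 0.01 without wild type mouse 3 and 0.15 without wild type mouse 4, neither of which passed.

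**Figure D4:**
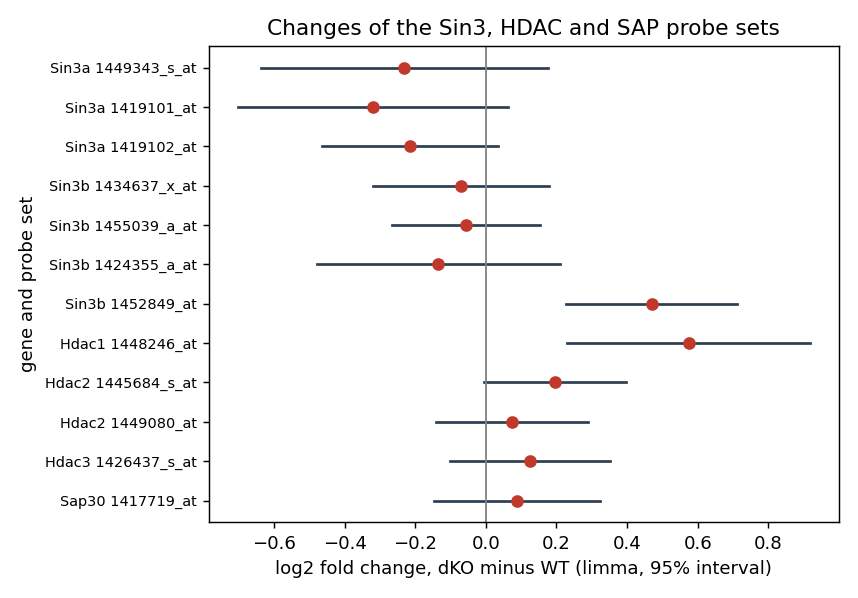
Log2 fold change, double knockout minus wild type, of the 12 tested probe sets of the corepressor genes (points) with limma's 95% interval (lines); the vertical grey line is no change. The intervals of Hdac1 and of Sin3b probe set 1452849_at lie above 0, and those of the other 10 include it.

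Other genes of the pathway were taken from 9 lists and read by the brightest probe set of each gene. Of 83 tested genes, 2 rose and 1 fell (3.61%, beside 4.47% of all tested probe sets), and the median log2 fold change was -0.0035, beside 0.03 over all tested probe sets. Leaving out any 1 mouse ended all 3 calls, and in those fits 0 or 1 gene of the lists passed, while calls over all tested probe sets fell to between 32 and 435. The differences themselves stayed close to those with all mice, at 0.52 to 0.63 for Kat2a, 0.39 to 0.48 for Mta2 and -0.67 to -0.52 for Arid4a.

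Among 16 other Sin3 subunits, 0 rose and Arid4a fell (median -0.01). Arid4a, a chromatin-binding subunit also known as a retinoblastoma-binding protein, read 7.50, 7.65 and 7.69 in double knockout mice 1, 2 and 3, against 8.31, 8.01 and 8.27 in wild type mice 1, 3 and 4. The groups did not overlap on this probe set (-0.58 ± 0.11, limma adjusted p = 0.0436). The call was lost with the 3′ minus 5′ difference as a covariate (-0.46, limma adjusted p = 0.244) and without the filter on dim probe sets (limma adjusted p = 0.0644). Over all probe sets tested in them, those settings gave 17 and 472 calls. A dimmer Arid4a probe set, with a difference of -0.10 ± 0.21, had no call (limma adjusted p = 0.787). Its paralog Arid4b was not called on its brightest probe set (-0.27 ± 0.11, limma adjusted p = 0.162), whereas a dim one passed (-0.78 ± 0.13, limma adjusted p = 0.0326). The means of that dim probe set were 3.65 in double knockout jejunum, under the minimum of 4, and 4.43 in wild type jejunum, so its size is uncertain. The other tested Arid4b probe sets did not pass (0.05, limma adjusted p = 0.902, and -0.19, limma adjusted p = 0.534). The 3 tested partners of Ncor1 had no call, with Gps2 at 0.18 ± 0.16 and Tbl1x at -0.04 ± 0.08.

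Among 19 genes of the NuRD, CoREST and MiDAC complexes, which also use Hdac1 and Hdac2, Mta2 rose and 0 fell (median 0.10). Mta2, a core subunit of the NuRD remodelling complex, read 8.32, 8.16 and 8.18 in double knockout mice 1, 2 and 3, against 7.67, 7.83 and 7.81 in wild type mice 1, 3 and 4. Its log2 fold change of 0.45 ± 0.09 passed narrowly (limma adjusted p = 0.0490) and did not pass after quantile normalization (0.44, limma adjusted p = 0.05002) or median centring (0.43, limma adjusted p = 0.0577). The call was also lost with the 3′ minus 5′ covariate (0.37, limma adjusted p = 0.255) and without the filter on dim probe sets (limma adjusted p = 0.0797). Over all probe sets tested in them, these last settings gave 17 and 472 calls. Of 9 other histone deacetylases that were bright enough, 0 passed (median -0.20). The mitochondrial sirtuin Sirt3 came nearest, at 6.86, 6.97 and 6.99 in double knockout mice and 7.29, 7.32 and 7.32 in wild type mice (-0.37 ± 0.08, limma adjusted p = 0.0544). It passed in 4 of 15 alternatives: the stricter filter, array weights, quantile normalization and median centring. Over all probe sets tested in them, those settings gave 1216, 1019, 765 and 762 calls. Sirt5, also mitochondrial, stood at 0.29 ± 0.11 (limma adjusted p = 0.152).

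Among 10 histone acetyltransferases, the enzymes that oppose deacetylases, Kat2a rose and 0 fell (median 0.01). Kat2a (Gcn5), the catalytic subunit of the SAGA coactivator complex, read 7.32, 7.38 and 7.44 in double knockout mice 1, 2 and 3, against 6.83, 6.88 and 6.67 in wild type mice 1, 3 and 4. Both groups were tight and far apart (0.58 ± 0.09, limma adjusted p = 0.0282). A dimmer Kat2a probe set had a difference of 0.87 ± 0.22 that did not pass (limma adjusted p = 0.0715). Its means were 4.55 in double knockout jejunum and 3.67 in wild type jejunum, the latter under the minimum of 4, so its size is uncertain. With the 3′ minus 5′ difference as a covariate Kat2a stood at 0.54 (limma adjusted p = 0.185), a setting with 17 calls over all tested probe sets.

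Of 10 DNA-binding proteins that recruit Sin3, 0 passed on the brightest probe set (median -0.17). The forkhead factor Foxk2 was not called there (0.44 ± 0.14, limma adjusted p = 0.112) but passed on another (0.48 ± 0.09, limma adjusted p = 0.0385). Both members with the smallest p were Mxd proteins, partners of Max that oppose Myc and bring Sin3 to E-boxes. Mxd4 read 6.71, 7.24 and 7.21 in double knockout mice 1, 2 and 3, against 7.80, 7.75 and 7.66 in wild type mice 1, 3 and 4 (-0.68 ± 0.15, limma adjusted p = 0.0578). Mxd1 read 10.40, 10.69 and 10.55 in double knockout mice and 10.92, 10.92 and 11.08 in wild type mice (-0.43 ± 0.10, limma adjusted p = 0.0677). For both the groups did not overlap, beside 34.3% of all tested probe sets. Both passed with the stricter filter and with the trended and robust variance prior, under which 9.56% and 9.6% of all tested probe sets were called. No other tested probe set of either gene passed, with differences of -0.57 and -0.19 for Mxd4 and -1.22 and -0.45 for Mxd1. The double knockout mean behind the -1.22 was 3.74, under the minimum of 4.

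**Figure D5:**
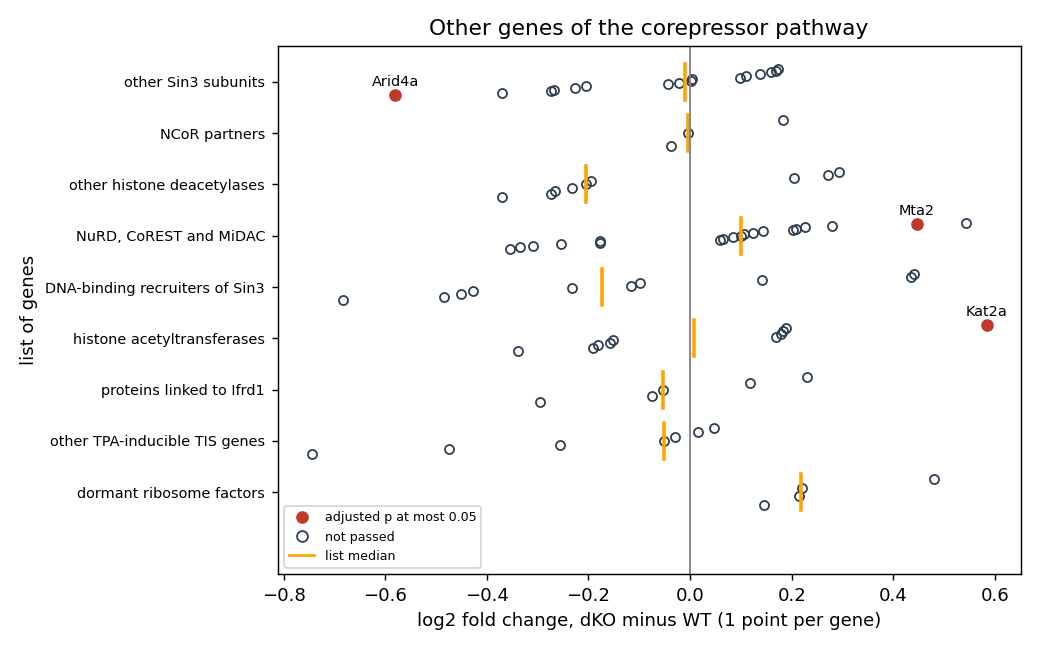
Log2 fold change, double knockout minus wild type, of each tested gene in 9 lists (rows), 1 point per gene, with calls (limma adjusted p no higher than 0.05) filled and the list median as an orange bar. Calls were Arid4a below 0 and Mta2 and Kat2a above 0, and most genes lay between -0.4 and 0.4.

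The genes linked to each Ifrd protein by other work showed no call on their brightest probe sets. Of 5 tested genes linked to Ifrd1, Rela, the NF-kappaB subunit whose acetylation Ifrd1 is reported to lower, stood at 0.23 ± 0.10 (limma adjusted p = 0.187), and the Wnt effector Tcf7l2 at -0.30 ± 0.13 (limma adjusted p = 0.211). Ifrd1 was first found among the TIS genes, which phorbol ester induces. Of 7 other tested TIS genes, Zfp36l1, a protein that shortens the life of AU-rich mRNAs, stood at -0.47 ± 0.13 on its brightest probe set (limma adjusted p = 0.0787) and -0.48 ± 0.08 on the other, which passed (limma adjusted p = 0.0344). Egr1 stood at -0.75 ± 0.29 (limma adjusted p = 0.162).

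The 4 genes of dormant ribosomes, the setting in which Ifrd2 protein was described, all had positive differences (median 0.22), none of which passed. Serbp1, which binds inactive ribosomes, read 11.99, 11.95 and 12.03 in double knockout mice 1, 2 and 3 and 11.83, 11.81 and 11.67 in wild type mice 1, 3 and 4 (0.22 ± 0.08, limma adjusted p = 0.155). Its paralog Habp4 stood at 0.48 ± 0.12 (limma adjusted p = 0.0648). That probe set was dim, with means of 4.72 in double knockout and 4.24 in wild type jejunum, and the other Habp4 probe sets were too dim to test.

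The genes whose levels followed the targeted genes most closely over the 6 arrays were found by Pearson correlation among 15877 tested probe sets of single genes. For Ifrd1 they were Ppp2r5e, a regulatory subunit of protein phosphatase PP2A on the same chromosome as Ifrd1 (r = 0.997), Zyg11b (0.996) and Rsf1 (0.996). Ppp2r5e read 8.36, 8.16 and 8.16 in double knockout mice 1, 2 and 3, against 9.19, 9.09 and 9.17 in wild type mice 1, 3 and 4. Mouse 1 was highest among the double knockouts, an order that the choice by correlation with Ifrd1 favours. For Ifrd2 they were Pcmtd2 (0.999), the amino acid transporter gene Slc6a20b on the same chromosome as Ifrd2 (0.997) and Tshz1 (0.997). Slc6a20b lay under the minimum of 4 in double knockout mice 1, 2 and 3 (1.89, 1.79 and 1.94), so the size of its change is uncertain. Zyg11b lay under it in double knockout mice 2 and 3 (3.66 and 3.53). The differences of Rsf1 (-0.30, limma adjusted p = 0.0783) and Tshz1 (-0.27, limma adjusted p = 0.0808) did not pass. With 6 arrays in 2 groups, a gene that separates the groups tends to correlate with both: 644 probe sets reached an r above 0.9 with Ifrd1 and 712 with Ifrd2.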

How the data were processed

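The authors deposited log2 expression values for every probe set on every array, produced by GCRMA (version 2.18.0, per the submitters' processing notes). No source used here gives its settings, and the log2 scale was read from the values. GCRMA estimates background from the probe letters, so low levels hold little information. The files hold no depth, and the number of arrays limits the precision.

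Names came from the platform annotation, updated through the GRCm38.p6 gene table (34958 probe sets with 1 symbol, 932 with several, 9211 with none). After 64 control probe sets were removed, the double knockout minus wild type difference was fitted by limma 3.58.1 under R 4.3.3, with lmFit, eBayes and no covariate. P-values are two-sided and adjusted by Benjamini-Hochberg over 18013 probe sets; standard errors and 95% intervals are limma's. The script was checked on simulated data. No arrays of a group were copies, since 62.5% or more of tested values differed by over 0.1 in each pair.

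The members and lists were chosen with earlier results of these data known. Of 98 list symbols, 94 matched; those without a match are not analysed here. Named were all member probe sets, up to 6 called genes per list (or the 2 with the smallest p), and the 3 genes most like each targeted gene; Arid4b, Foxk2 and the tissue markers were named after their values were seen. Alternatives covered the filter, a floor, normalization, the variance prior, array weights, a block for mouse number, an RNA integrity covariate and leaving out each mouse. Figures were drawn with matplotlib 3.10.9.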

Additional observations from a re-analysis of the deposited data

How the results depend on the processing

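Ifrd2 kept its direction and its call in all 15 alternatives (log2 fold change -5.81 to -4.38). Ifrd1 kept its direction in all 15 (-5.09 to -4.36) and lost its call in 2: with the replicate block by mouse number (-4.36, limma adjusted p = 0.103) and with the 3′ minus 5′ covariate (-4.93). Leaving out each mouse gave -5.09 to -4.36 for Ifrd1 and -5.81 to -5.60 for Ifrd2. Calls among the other members were 0, against 1 with the stricter filter above 6 (Hdac1), 1 with the trended and robust variance prior (Hdac1) and 1 with array weights (Sin3b), and stayed 0 with each mouse left out. Calls among the listed partner genes were 3, against 1 without the filter, 7 with the stricter filter, 7 with the trended and robust prior, 0 with the replicate block, 0 with the 3′ minus 5′ covariate, 6 when any probe set of a gene counted, and 0 to 1 with each mouse left out (Foxk2 without double knockout mouse 2). Counting any probe set gives a gene more chances of a call, and no share over all genes is given beside it.

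Signs turned for 4 differences that had not passed: with the 3′ minus 5′ covariate for Sin3b on 1434637_x_at (0.054), 1455039_a_at (0.013) and 1424355_a_at (0.13) and for Tbl1x (0.0037), and for Sin3b 1455039_a_at without double knockout mouse 3 (leaving out each mouse gave -0.087 to 0.00067). Over all tested probe sets, 805 calls became 472 without the filter, 1216 with the stricter filter, 1730 with the trended and robust prior, 13 with the replicate block, 17 with the covariate and 32 to 435 with each mouse left out. The stricter filter tests fewer probe sets; other causes were not tested. Whether the mouse numbers pair the animals is not given in the labels. Deviations from the group means correlated at 0.02 for the mice numbered 1 and 0.30 for those numbered 3. The latter was the highest between any wild type and double knockout mouse, and these values cannot settle the question. The block rests on those 4 mice alone. A call lost under the block is therefore not read as a weaker effect. Signal near the bottom of the scale limits the dim probe sets of Sin3a, Sin3b, Hdac2, Arid4b, Mxd1, Kat2a and Habp4, and those of Slc6a20b and Zyg11b.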
